A study of Homo sapiens with 16 samples.

Results

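The 39 genes of the 4 human HOX clusters and the long noncoding RNAs HOTAIR and HOTTIP were examined in pancreatic cancer cells. Members were the genes whose symbol is HOXA, HOXB, HOXC or HOXD followed by a number, plus HOTAIR and HOTTIP. There were 11 HOXA, 10 HOXB, 9 HOXC and 9 HOXD genes. HOXC4 appears under 2 identifiers, so the 41 genes took 42 of the 63677 identifiers of the count table. RNA-seq libraries came from the established cell lines MiaPaCa2 and PANC1, both derived from human pancreatic tumors. The cells of each line were controls or received gemcitabine at 40 nmol/L, genistein at 50 μmol/L or both drugs at these doses, for 24 hours. Whether the controls received the solvent of genistein, DMSO, is not given in the sources used here, and they are called untreated only in the sense that they got neither drug. Gemcitabine is a nucleoside analog that blocks DNA synthesis, and genistein is a soy isoflavone with estrogenic activity. Each of the 8 groups had 2 biological replicates, which gave 16 libraries. A difference between the lines is therefore a difference between 2 cell lines and not between kinds of tumor.

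HOX genes encode homeodomain transcription factors that give cells their position along the body axis. They lie in 4 clusters in which gene order follows the order of expression from head to tail, so low numbers are called anterior and high numbers posterior, and genes with the same number in different clusters are paralogs. Polycomb complexes keep the clusters silent and trithorax complexes keep them active. HOTAIR is transcribed from within the HOXC cluster, between HOXC11 and HOXC12, and is known for its binding to polycomb proteins. HOTTIP is transcribed from the posterior end of the HOXA cluster, next to HOXA13.

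Between 12943482 and 31991860 reads were counted on genes per library, with a median of 16059396.5. Of 4 keratins, which mark epithelial cells, KRT8, KRT18 and KRT19 were at 56.5 FPKM or more in every library, while KRT7 was at 0.17 to 1.7 FPKM in MiaPaCa2 and 3.95 to 21.1 in PANC1. EPCAM had 0 counts in all 8 MiaPaCa2 libraries and 7.71 to 12.8 FPKM in PANC1, and CDH1, which encodes E-cadherin, had at most 2 counts in MiaPaCa2 and at least 98 in PANC1. The islet genes INS and GCG had 0 counts in all 16 libraries, PTPRC at most 1, and none of the 4 acinar genes exceeded 2 counts. In cultures such as these, a lower share of expressing cells and less RNA per expressing cell cannot be told apart.

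Some members cannot be separated cleanly in 50-base reads. Windows of 50 bases were compared between the transcripts of all members. HOXD11 and HOXD10 shared 19.7% and 16.4% of their windows with each other. HOXC4 and HOXC6 shared 16% and 13.4% with another member, chiefly each other, and HOXB6 shared 14.6%, chiefly with HOXB3. The exons of HOXD11 and HOXD10 overlap on the same strand, over 21.4% and 18.2% of their bases. HOXB3 overlaps 16.6% of the HOXB6 exons in the same way. These shares do not bound the error of the counts. In untreated PANC1 HOXC4 had 47 and 50 counts at 8.39 and 7.84 FPKM, where HOXC8 had 353 and 549 counts at 4.19 and 4.46 FPKM. Other genes on the same strand overlapped the exons of HOXC5, HOXA4 and HOXC4, among others, over 67.3%, 31.3% and 17.5%. What this did to their counts was not tested. The second HOXC4 identifier (ENSG00000273266) had 0 counts in all 16 libraries, although its deposited FPKM was above 0 in some. HOXA6, HOXA7 and HOXD1 overlapped antisense transcripts over 39.3%, 62.5% and 60.1% of their exons. Smaller overlaps were those of HOXA11 (27.2%), HOXD8 (24.4%), HOXA3 (17.3%), HOXB6 (16.3%) and HOXD3 (14.1%), among others. Whether the counting used strand is not given in the sources used here, so their reads and those of the antisense partner cannot be told apart.

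Promoter windows of 300 bases, which end 50 bases after the transcription start, were taken from RefSeq on GRCh38.p14. They covered 21 of the 41 members in 27 distinct windows. Members with no window included HOXA5, HOXB2 to HOXB9, HOXB13, HOXC6, HOXC8 to HOXC13, HOTAIR and HOXD9. CG pairs numbered 0 to 44 per window, and 20 of the 27 windows held more than the median of 14 over all 34943 windows. The CCAAT box, searched as CCAAT on both strands, occurred in 18 of the 27 windows (66.7%) against 34.6% of all windows. TATAAA on either strand occurred in 5 windows (18.5%, against 11.6% of all), and TGATNNAT, a sequence known for binding PBX and HOX dimers, in 3 (11.1%, against 7.42%). A match describes the letters only. The windows shown are those that 2 members share and those of HOXA6 and HOXD3, which had 0 counts in every MiaPaCa2 library. All are written 5′ to 3′ on the strand of the gene, and capitals mark CCAAT or its reverse complement.
HOXC4 and HOXC5, chr12:54016638-54016937, plus strand, 1 window listed for both genes: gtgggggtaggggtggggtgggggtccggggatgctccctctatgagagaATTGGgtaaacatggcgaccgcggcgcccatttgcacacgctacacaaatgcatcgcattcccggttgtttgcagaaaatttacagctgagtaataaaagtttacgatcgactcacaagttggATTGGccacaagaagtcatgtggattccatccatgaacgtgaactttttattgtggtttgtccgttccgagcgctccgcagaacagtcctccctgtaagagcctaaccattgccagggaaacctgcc
HOXA13, chr7:27200042-27200341, minus strand: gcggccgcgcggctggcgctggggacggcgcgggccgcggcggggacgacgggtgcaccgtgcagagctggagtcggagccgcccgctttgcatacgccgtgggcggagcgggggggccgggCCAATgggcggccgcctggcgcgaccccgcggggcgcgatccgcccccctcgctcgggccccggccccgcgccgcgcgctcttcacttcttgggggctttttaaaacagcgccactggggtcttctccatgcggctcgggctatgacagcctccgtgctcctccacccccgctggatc
HOTTIP, chr7:27200171-27200470, plus strand: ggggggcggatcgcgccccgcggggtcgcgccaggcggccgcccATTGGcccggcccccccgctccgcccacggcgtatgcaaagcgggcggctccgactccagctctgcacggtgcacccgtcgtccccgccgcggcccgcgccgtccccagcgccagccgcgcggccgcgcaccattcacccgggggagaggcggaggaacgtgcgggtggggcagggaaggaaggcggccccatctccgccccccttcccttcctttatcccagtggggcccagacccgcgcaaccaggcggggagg
HOXA6, chr7:27147725-27148024, minus strand: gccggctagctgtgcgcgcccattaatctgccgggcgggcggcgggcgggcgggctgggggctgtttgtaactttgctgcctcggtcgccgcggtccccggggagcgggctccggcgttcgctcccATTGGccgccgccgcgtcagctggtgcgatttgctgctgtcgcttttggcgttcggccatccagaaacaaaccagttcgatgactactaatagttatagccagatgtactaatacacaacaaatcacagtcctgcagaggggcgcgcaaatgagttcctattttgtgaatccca
HOXD3, chr2:176157057-176157356, plus strand: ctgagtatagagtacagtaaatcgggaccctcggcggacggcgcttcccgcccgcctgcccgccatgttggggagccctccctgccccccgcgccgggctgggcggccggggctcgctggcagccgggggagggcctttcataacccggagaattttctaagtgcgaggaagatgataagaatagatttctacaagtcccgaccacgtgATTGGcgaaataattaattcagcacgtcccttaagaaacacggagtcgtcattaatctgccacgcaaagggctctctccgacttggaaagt
The HOXA13 and HOTTIP windows point away from each other and share 171 bases, which include the single CCAAT box of each. They were also the windows richest in CG pairs, with 44 and 41. The HOXC4 and HOXC5 window is less rich in CG pairs, with 15.

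In untreated cells 12 of the 42 identifiers had a mean above 1 FPKM in MiaPaCa2 and 23 had one in PANC1. FPKM is scaled to transcript length and library size, so levels of different genes can be compared on it. For a gene with several isoforms it is a sum of isoform estimates and depends on them. Both lines expressed 12 members, namely HOXA3, HOXB2 to HOXB9, HOXB13, HOXC6 and HOXC8. PANC1 alone expressed 11, among them HOXA2, HOXA5, HOXA6, HOXC4, HOXC9 to HOXC13 and HOTAIR. No member passed 1 FPKM in MiaPaCa2 alone. All 9 HOXD genes stayed at or below 1 FPKM in both lines. HOXB1, which patterns the hindbrain, had 0 counts in all 16 libraries.

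**Figure D1:**
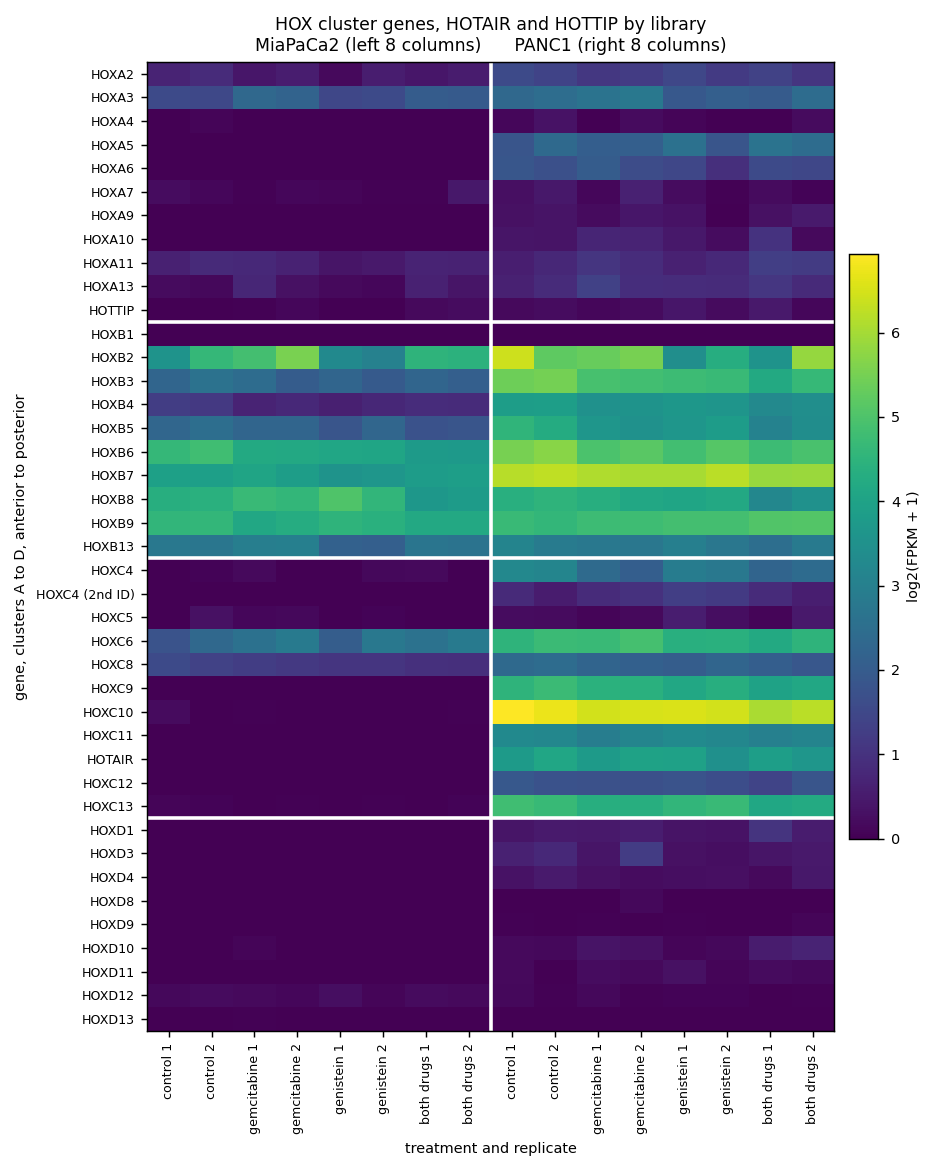
Heat map of log2(FPKM + 1) for 41 of the 42 identifiers (rows, clusters A to D from anterior to posterior) in the 16 libraries (columns, MiaPaCa2 left and PANC1 right). The HOXB rows are bright in both lines, the rows from HOXC9 to HOXC13 are bright in PANC1 and dark in all 8 MiaPaCa2 libraries, and the HOXD rows are dark throughout.

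The HOXB cluster held most of the HOX message in MiaPaCa2. Its summed FPKM was 87.8% to 93.2% of the sum over all members across the 8 MiaPaCa2 libraries and 49% to 57% across the 8 PANC1 libraries. The HOXC cluster made up 3.95% to 7.32% in MiaPaCa2 and 38% to 45.9% in PANC1. The ranges of the lines did not overlap for either cluster, and they did not overlap when HOXB2 was left out (HOXC 4.31% to 8.79% and 43.5% to 47%). The HOXD cluster gave at most 0.18% and 0.609%.

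In untreated PANC1 the highest FPKM was that of HOXC10, a posterior gene, at 121.2 and 105.2 FPKM (113.2 ± 11.3, SD, n = 2). HOXB7 followed at 74 ± 2.28 FPKM, HOXB6 at 48 ± 4.46 and HOXB3 at 42.4 ± 1.52, and the values of these 4 genes did not overlap. HOXB2 had a mean of 59.5 but varied from 36 to 83, so its place among them is not determined. HOXC13, HOXB9, HOXC6 and HOXC9 came next at 25.7 ± 2, 24.2 ± 1.28, 23.7 ± 2.85 and 23.6 ± 2.73 FPKM, and these 4 did not differ beyond their spread. HOTAIR stood at 14.4 ± 2.46. In untreated MiaPaCa2 the highest FPKM was that of HOXB6 at 25.2 ± 2.36. HOXB9 had 22.8 ± 0.203 and HOXB8 19.3 and 20.3 FPKM, and HOXB2, at 10.9 and 23.4, spanned both. HOXB9 had more counts than HOXB6 there, 1217 and 983 against 667 and 573, over exons of 2586 and 2604 bases. The HOXB6 value sums 4 isoform estimates, so which gene was highest is not determined. In untreated PANC1 HOXB6 had 1550 and 2325 counts and HOXB9 1670 and 2284. The place of HOXB6 in PANC1 thus also depends on its isoform estimates. The HOXC10, HOXB7 and HOXB3 values sum 5, 3 and 14 isoform estimates. In untreated PANC1 HOXC10 had 2223 and 3134 counts over 2371 exon bases. HOXB7 had 1860 and 2603 over 1520, and HOXB3 2191 and 3297 over 7425. The order given for these genes is therefore that of the FPKM estimates, and which gene was highest is not determined. Of group 13, which acts at the posterior end of the axis, HOXC13 had 27.2 and 24.3 FPKM in untreated PANC1, HOXB13 7.81 and 6.37, HOXA13 0.547 and 0.811, and HOXD13 was listed at 0 in both.

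**Figure D2:**
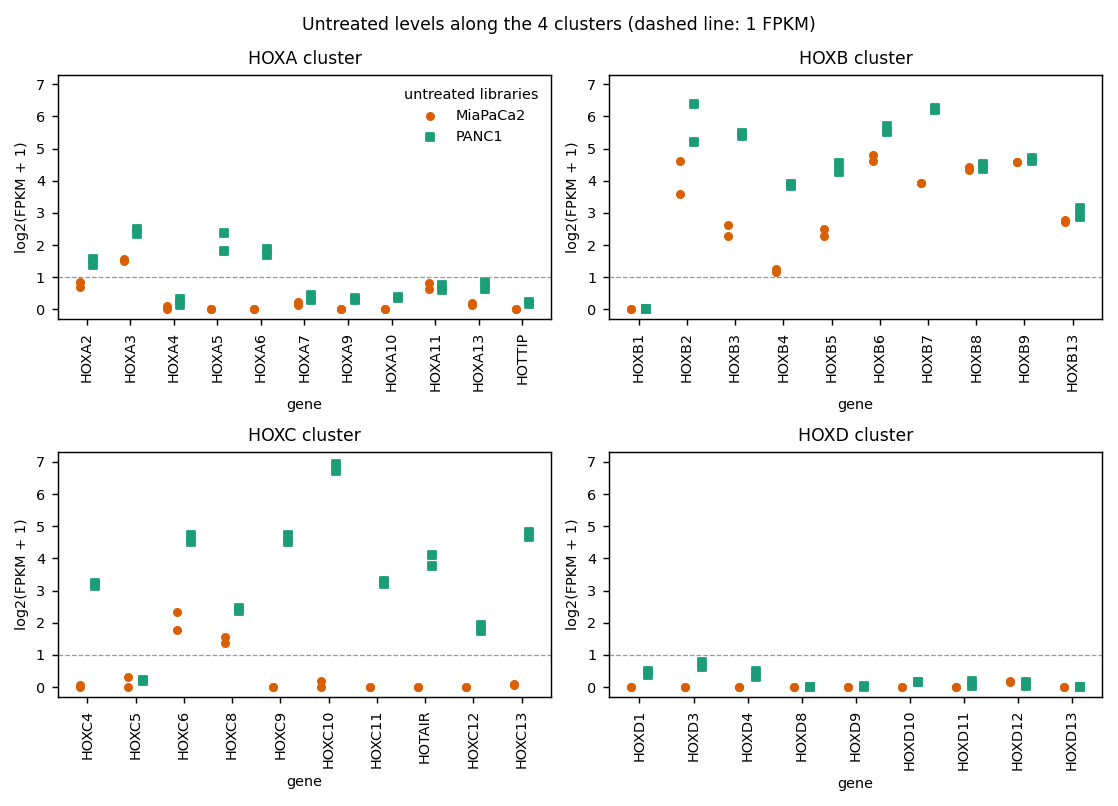
Level on the log2(FPKM + 1) scale of the members in the 2 untreated libraries of MiaPaCa2 (circles) and PANC1 (squares), in 4 panels by cluster, with a dashed line at 1 FPKM. PANC1 points lie near those of MiaPaCa2 for HOXB8, HOXB9 and HOXB13 and far above them from HOXC9 to HOXC13.

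The untreated lines were compared to ask where their HOX programs differ. In this comparison 28 of the 42 identifiers passed the low-count filter. Of these, 12 had at most 3 counts in each untreated MiaPaCa2 library and passed through their PANC1 counts alone. Their direction was fixed by that. Calls needed an adjusted p no larger than 0.05, a log2 fold change of 0.4 or more in size and a mean over 1 FPKM in either line. By this rule 20 members were higher in PANC1 and 0 were lower, where 27.9% of all 17863 genes tested were higher and 24.3% were lower, 52.3% in all. The 20 were 9 members of the HOXC cluster with HOTAIR, 6 HOXB genes and 5 HOXA genes. edgeR and DESeq2 also called 20 higher and 0 lower, and at an unadjusted p under 0.05 the counts were 24 higher and 1 lower. The shares of all genes called in these ways are not given here. A correction for GC content lowered the share of all called genes that were higher in PANC1 from 53.5% to 37.6% and the median of all genes from 0.06 to -0.24, and it left all 20 members called.

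All 9 tested members of the HOXC cluster were higher in PANC1. For 7 of them the direction was fixed in advance, since they passed the low-count filter through PANC1 alone. HOTAIR (ENSG00000228630, GRCh37 chromosome 12, 54356092 to 54368740, minus strand) had 0 counts in each of the 8 MiaPaCa2 libraries. In PANC1 it had 494 and 956 counts in the control libraries, 388 and 531 with gemcitabine, 292 and 270 with genistein and 306 and 374 with both drugs. Against a floor of 3 counts in each MiaPaCa2 library, untreated PANC1 was at least 132.6-fold higher. HOXC9, a gene of thoracic identity, and HOXC11 were also at 0 counts in all 8 MiaPaCa2 libraries. Untreated PANC1 had at least 110.9-fold more HOXC9 and at least 107.5-fold more HOXC11. HOXC12 was at least 11.6-fold higher. These intervals and floors cover counting error only.

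HOXC10 (ENSG00000180818, chromosome 12, 54378849 to 54384063, plus strand) had 2223 and 3134 counts in untreated PANC1 and 1 and 0 in untreated MiaPaCa2. The ratio of the normalised sums was 3044, with a 95% exact counting interval of 546.1 to 120252. HOXC13, which regulates hair keratins, had 1609 and 2119 counts against 3 and 2, a ratio of 423.7 with an interval of 181.4 to 1306. HOXC4 had 47 and 50 counts against 0 and 0 and was at least 9.51-fold higher on these counts, which were low for its FPKM. HOXC5, listed with the same promoter window, had 3 and 5 counts against 0 and 2 and was not tested.

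The 2 remaining HOXC genes were expressed in both lines. HOXC6 had 21.7 and 25.7 FPKM in untreated PANC1 and 2.42 and 4.07 in untreated MiaPaCa2, a log2 fold change of 2.75 ± 0.18 (SE, adjusted p = 2.6e-08). HOXC8 had 4.19 and 4.46 FPKM against 1.95 and 1.56, a log2 fold change of 1.26 ± 0.15 (adjusted p = 7.3e-06). In MiaPaCa2 the cluster was thus measurable at HOXC6 and HOXC8 and at or near 0 from HOXC9 to HOXC13. It was also at or near 0 at HOXC4 and HOXC5, whose counts are subject to the exon overlaps above.

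The HOXB cluster was active in both lines, and 6 of its genes were higher in PANC1. HOXB4, which is known for expanding blood stem cells, was 3.35 ± 0.15 higher in PANC1 on the log2 scale (adjusted p = 6.8e-10), with 13.4 and 13.9 FPKM against 1.41 and 1.24. HOXB3 differed by 2.87 ± 0.13, HOXB7 by 2.24 ± 0.12, HOXB5 by 2.2 ± 0.20, HOXB2 by 0.98 ± 0.16 and HOXB6 by 0.83 ± 0.10, all higher in PANC1 with adjusted p of 1.5e-04 or less. The more posterior HOXB9 did not differ beyond its error (0.04 ± 0.10, adjusted p = 0.725), with 25.1 and 23.3 FPKM in PANC1 and 22.7 and 23 in MiaPaCa2. HOXB13, known from prostate development, had a difference of 0.24 ± 0.17 (adjusted p = 0.217). HOXB8 was the 1 member with a lower value in PANC1 at the adjusted p threshold (-0.38 ± 0.14, adjusted p = 0.0282), which is under the fold criterion. It passed the fold criterion after the GC correction, in the difference averaged over the 4 treatments, and without PANC1 control replicate 1, MiaPaCa2 control replicate 1, MiaPaCa2 genistein replicate 2 or PANC1 both-drugs replicate 1.

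In the HOXA cluster 5 genes were higher in PANC1. HOXA5, which acts in lung development, had 70 and 153 counts in untreated PANC1 and 0 in all 8 MiaPaCa2 libraries and was at least 20.1-fold higher. HOXA6 had 53 and 63 counts against 0 and was at least 11.2-fold higher. HOXA3, which acts in the pharyngeal arches and thymus, was 0.91 ± 0.20 higher on the log2 scale (adjusted p = 0.00119). HOXA2 was 1.23 ± 0.32 higher (adjusted p = 0.00464), and without MiaPaCa2 control replicate 1 the value was 0.98 with an adjusted p of 0.0736. HOXA11 did not differ beyond its error (-0.12 ± 0.26, adjusted p = 0.711). HOXA13 was 2.04 ± 0.44 higher in PANC1 (adjusted p = 0.00116) but stayed under 1 FPKM in both untreated lines, and HOXA10 was at least 2.49-fold higher from 8 and 20 counts. HOTTIP, whose promoter window overlaps that of HOXA13, had 3 and 18 counts in untreated PANC1 and 0 in both untreated MiaPaCa2 libraries and was not tested. HOXA4, HOXA7 and HOXA9 had at most 8 counts in any library.

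The HOXD genes were close to the limit of detection. In untreated PANC1 the HOXD3 counts were 39 and 65 and the HOXD1 counts 15 and 29, against 0 in all 8 MiaPaCa2 libraries. They were higher by at least 9.68-fold and by at least 4.02-fold. The other 7 HOXD genes had at most 10 counts in any library. HOXD12 had 2 to 5 counts in every MiaPaCa2 library and at most 4 in PANC1.

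The isoform estimates showed where single genes were poorly determined. HOXB2 FPKM ran from 9.74 to 83 over the PANC1 libraries while its counts in the untreated libraries were 1037 and 1391. The short transcript ENST00000574746 was estimated at 58.9 and 19.6 FPKM in these 2 libraries, and the coding transcript ENST00000330070 at 13.3 and 13.5. HOTAIR came mostly from ENST00000424518, with 6.78 and 9.63 FPKM in untreated PANC1, which was 53.5% and 59.6% of the HOTAIR isoform sum. For HOXC10 the highest isoform was ENST00000514415 at 45.6 and 42.6 FPKM, followed by ENST00000303460 at 38.8 and 36.4. HOXB9 came from ENST00000311177 alone in both lines.

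The noncoding RNAs of the clusters also differed between the lines. Of 22 listed, 11 were tested, and 7 were higher and 2 lower in PANC1. Of the 11, 6 had at most 3 counts in each untreated MiaPaCa2 library and were tested through their PANC1 counts alone. The median log2 difference was 4.16 in the fit and 2.74 with the genes near 0 set to their bound, against 0.06 over all genes tested. HOXD-AS1 had 0 counts in all 8 MiaPaCa2 libraries and 306 to 763 in PANC1, at least 115.5-fold higher in the untreated cells, where no HOXD gene passed 1 FPKM. HOXC13-AS was higher by at least 60.4-fold, HOXC-AS3 by at least 28.6-fold, and HOXB-AS3 by 2.80 ± 0.46 on the log2 scale (adjusted p = 1.2e-04). HOXA-AS2 (-1.46 ± 0.20, adjusted p = 2.4e-05) and HOXA11-AS (-1.22 ± 0.27, adjusted p = 0.00153) were the 2 that were lower in PANC1, named after their values were seen. The members themselves had a median of 3.06, or 2.50 with genes near 0 at their bound.

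Genes that flank the clusters, cofactors and regulators of the clusters did not share one direction. Over all genes tested 27.9% were higher and 24.3% were lower in PANC1. Of the 13 flanking genes tested, 7 were higher and 1 was lower in PANC1, with a median of 0.57. Among cofactors of the TALE class, which bind DNA together with HOX proteins, 1 was higher and 4 were lower of 8 tested. PBX3 was 1.83 ± 0.15 higher in PANC1 (adjusted p = 2e-07), while MEIS2 was lower by -3.93 ± 0.15 (adjusted p = 1.8e-10) and PKNOX2, at 0 or 1 count in every PANC1 library, at least 43.8-fold lower. Of 27 polycomb genes 7 were higher and 9 lower, with a median of 0.08. EZH1, a methyltransferase subunit, was lower in PANC1 (-1.58 ± 0.10, adjusted p = 2.6e-08), and BMI1 was higher (1.64 ± 0.31, adjusted p = 4.2e-04). Of 11 trithorax and demethylase genes 4 were higher and 5 lower. KMT2A, a trithorax methyltransferase, was 1.15 ± 0.12 higher (adjusted p = 1.4e-06). KDM6A, a demethylase that removes the polycomb histone mark, had at most 1 count in each MiaPaCa2 library and 374 to 1062 in PANC1, at least 152.6-fold higher in the untreated cells. Its part in the HOX levels was not tested. In the retinoid pathway, a known inducer of HOX genes, 4 of 9 were higher and 2 lower, with CRABP2 at 145.2 to 296.0 FPKM in PANC1 and at most 0.617 in MiaPaCa2. Of the 8 ParaHox and EVX genes 2 were tested, and neither met the call rule in limma-voom. PDX1, the pancreatic ParaHox gene, had 0.693 to 1.21 FPKM in PANC1 and 0.122 to 0.699 in MiaPaCa2 (2.13 ± 0.41, adjusted p = 5.2e-04, under 1 FPKM when untreated). All 6 epithelial markers were also higher in PANC1, with a summed level of 1444 to 2561 FPKM against 852.4 to 1438 in MiaPaCa2. Of the 6, 3 had at most 3 counts in each untreated MiaPaCa2 library. Of the 4 mesenchymal markers CDH2 was higher, by at least 211.3-fold, and VIM lower (-0.48 ± 0.07, adjusted p = 5.2e-05). VIM was at 1398 to 2734 FPKM in PANC1 and 2336 to 3875 in MiaPaCa2. The part of these markers in the HOX difference was not tested.

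**Figure D3:**
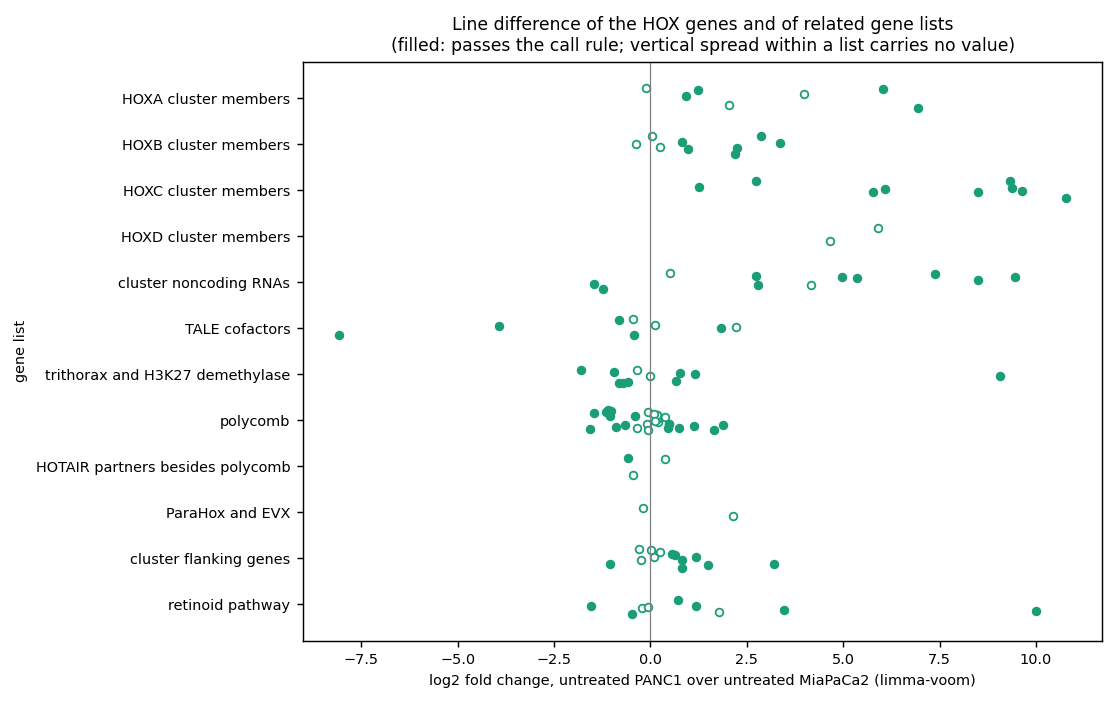
Log2 fold change of untreated PANC1 over untreated MiaPaCa2 (horizontal axis) for tested genes of the 4 clusters and of 8 related lists (rows), with filled points for genes that pass the call rule. HOXC points all lie above 0, which the low-count filter fixed in advance for 7 of the 9. Polycomb points fall on both sides. Points beyond about 5 belong to genes near 0 counts in MiaPaCa2, whose fitted value depends on the prior count.

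The drug comparisons ask how each treatment changed the HOX genes within a line. In PANC1 28 members were tested. With both drugs 12 members fell and 1 rose, where 6.90% of all 16909 genes tested fell and 10.2% rose, 17.1% in all. The members' median log2 fold change was -0.57, and that of all genes tested was 0.01. The genes that fell were HOXB2 to HOXB8 and, of the HOXC cluster, HOXC4, HOXC8, HOXC9, HOXC10 and HOXC13.

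HOXB6 had the clearest fall. Its CPM values, read counts scaled to the library size with TMM factors, were 77.7 and 72.7 in the PANC1 control libraries, 39.3 and 35.9 with gemcitabine, 42.7 and 46.6 with genistein and 30.3 and 34.3 with both drugs. All 6 treated libraries lay below both controls. Both drugs changed it by -1.19 ± 0.12 (log2 ± SE, adjusted p = 0.00104). HOXB3 went from 109.9 and 103.1 to 46.1 and 54.2 (-1.06 ± 0.11, adjusted p = 0.00118), and HOXB5 from 54.7 and 41.6 to 14.9 and 20 (-1.42 ± 0.18, adjusted p = 0.00223). The groups did not overlap for either gene. HOXB8 fell by 1.06 ± 0.13, HOXB2 by 0.87 ± 0.17, HOXB4 by 0.75 ± 0.12 and HOXB7 by 0.74 ± 0.11, with adjusted p from 0.00196 to 0.0107. HOXB9, the neighbor of HOXB8, had 83.7 and 71.4 in the controls and 88.9 and 93.4 with both drugs, a change of 0.27 ± 0.10 that did not pass (adjusted p = 0.0965).

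In the HOXC cluster HOXC10 fell from 111.5 and 98 CPM to 54 and 59.5 with both drugs (-0.85 ± 0.10, adjusted p = 0.00209). HOXC9 changed by -0.80 ± 0.14 (adjusted p = 0.00686), HOXC13 by -0.73 ± 0.12 (adjusted p = 0.00665) and HOXC8 by -0.72 ± 0.16 (adjusted p = 0.0185). HOTAIR had 24.8 and 29.9 in the controls and 19.3 and 21.4 with both drugs, and its change of -0.41 ± 0.17 did not pass (adjusted p = 0.143), although it was called after the GC correction and in the model of all 16 libraries. HOXC4 changed by -1.59 ± 0.47 (adjusted p = 0.0484) from 47 and 50 counts to 5 and 18. HOXA11, a gene of limb and uterus, was the 1 member that rose, from 1.30 and 1.66 to 3.03 and 2.86 (0.99 ± 0.25, adjusted p = 0.0303). DESeq2 lost the calls of HOXC4 (adjusted p = 0.0668) and HOXA11 (adjusted p = 0.0802), edgeR lost that of HOXC4, and both kept the other 11. HOXA11 was also lost without any 1 of 7 PANC1 libraries. HOXC4 was lost under 11 settings, 6 of which left out 1 library, with values of -1.62 to -0.83 (adjusted p = 0.237 for the last, without both-drugs replicate 1), and without both-drugs replicate 2 HOXC8 did not pass (-0.59, adjusted p = 0.0884). HOXD3 had 39 and 65 counts in the controls and 8 and 12 with both drugs (-1.68 ± 0.38, adjusted p = 0.0196), under 1 FPKM throughout this comparison.

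**Figure D4:**
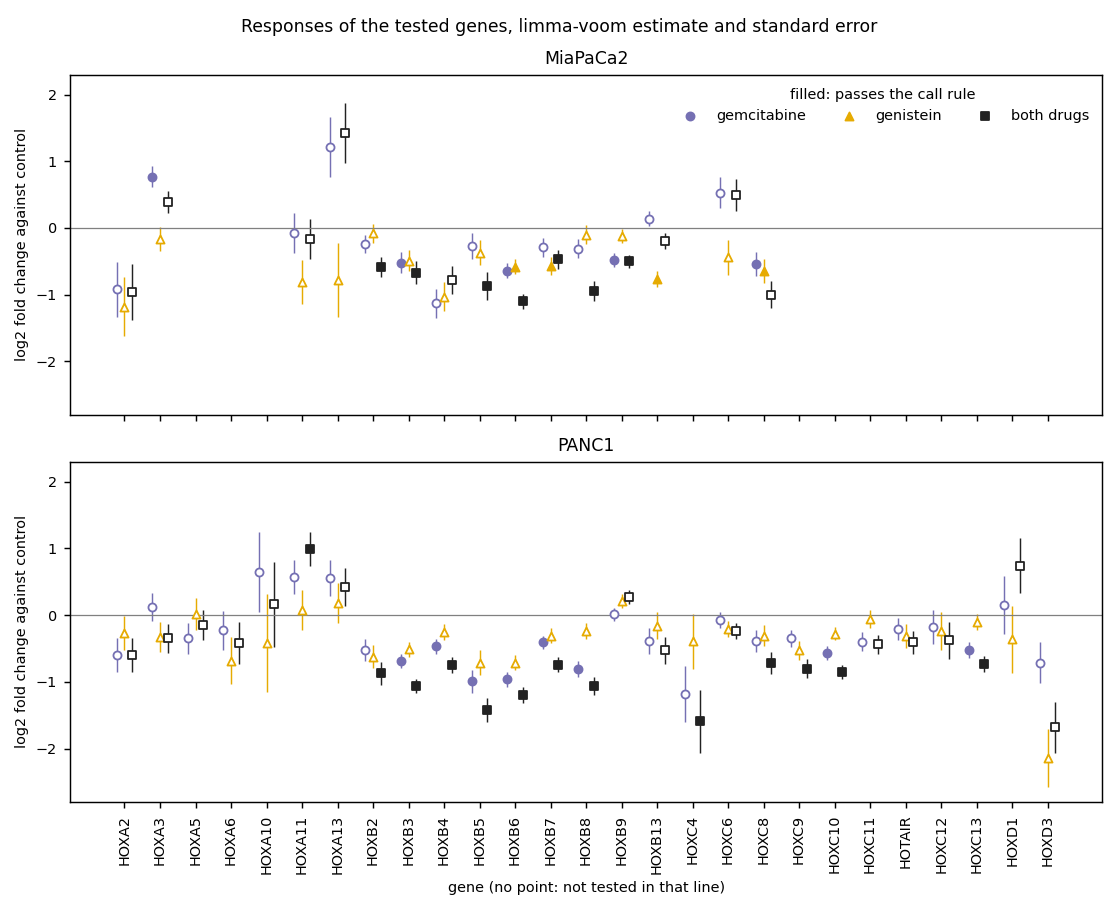
Log2 fold change against the untreated control with its standard error for the tested members (horizontal axis) in MiaPaCa2 (top) and PANC1 (bottom), for gemcitabine (circles), genistein (triangles) and both drugs (squares). Filled symbols pass the call rule, and the run from HOXB2 to HOXB8 lies below 0 for both drugs in both lines.

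Gemcitabine alone lowered 8 members in PANC1 and raised 0, against 3.03% and 4.49% of all genes tested (7.52% in all). HOXB5 changed by -0.99 ± 0.17 (adjusted p = 0.0163), HOXB6 by -0.96 ± 0.11 (0.00415), HOXB8 by -0.80 ± 0.12 (0.0112), HOXB3 by -0.69 ± 0.10 (0.00972), HOXC10 by -0.57 ± 0.10 (0.0165), HOXC13 by -0.52 ± 0.12 (0.0385), HOXB4 by -0.47 ± 0.11 (0.0414) and HOXB7 by -0.41 ± 0.10 (0.0479), with adjusted p in parentheses. HOTAIR had 20.9 and 25.1 CPM, a change of -0.21 ± 0.17 (adjusted p = 0.474). These calls rest on few libraries. Without gemcitabine replicate 1 or 2, 0 of the 8 were called, without genistein replicate 1 or 2, 3 were called, and without control replicate 1, 5 were. On log2(FPKM + 1) 0 of the 8 passed and HOXC4 alone was called, and scaling by library size alone, which moved the median of all genes from 0.03 to 0.14, left 5.

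Genistein alone changed 0 members in PANC1 by limma-voom, which called 10 genes in all, each of them higher (0.0591%). At an unadjusted p under 0.05, 8 members were lower and 0 higher, edgeR called 0 and DESeq2 called 5 lower. HOXB6 had 42.7 and 46.6 CPM against 77.7 and 72.7 in the controls (-0.71 ± 0.11, adjusted p = 0.0903), and HOXD3 had 4 and 7 counts against 39 and 65 (-2.14 ± 0.43, adjusted p = 0.112). Genistein added to gemcitabine changed 0 members by limma-voom, edgeR and DESeq2, and limma-voom called 3 genes in all (0.0177%, 0.0118% higher and 0.00591% lower). At an unadjusted p under 0.05, 5 members were lower and 1 was higher. The shares of all genes at an unadjusted p under 0.05, or called by edgeR or DESeq2, are not given here. The member counts obtained in these ways cannot be read as particular to the members.

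**Figure D5:**
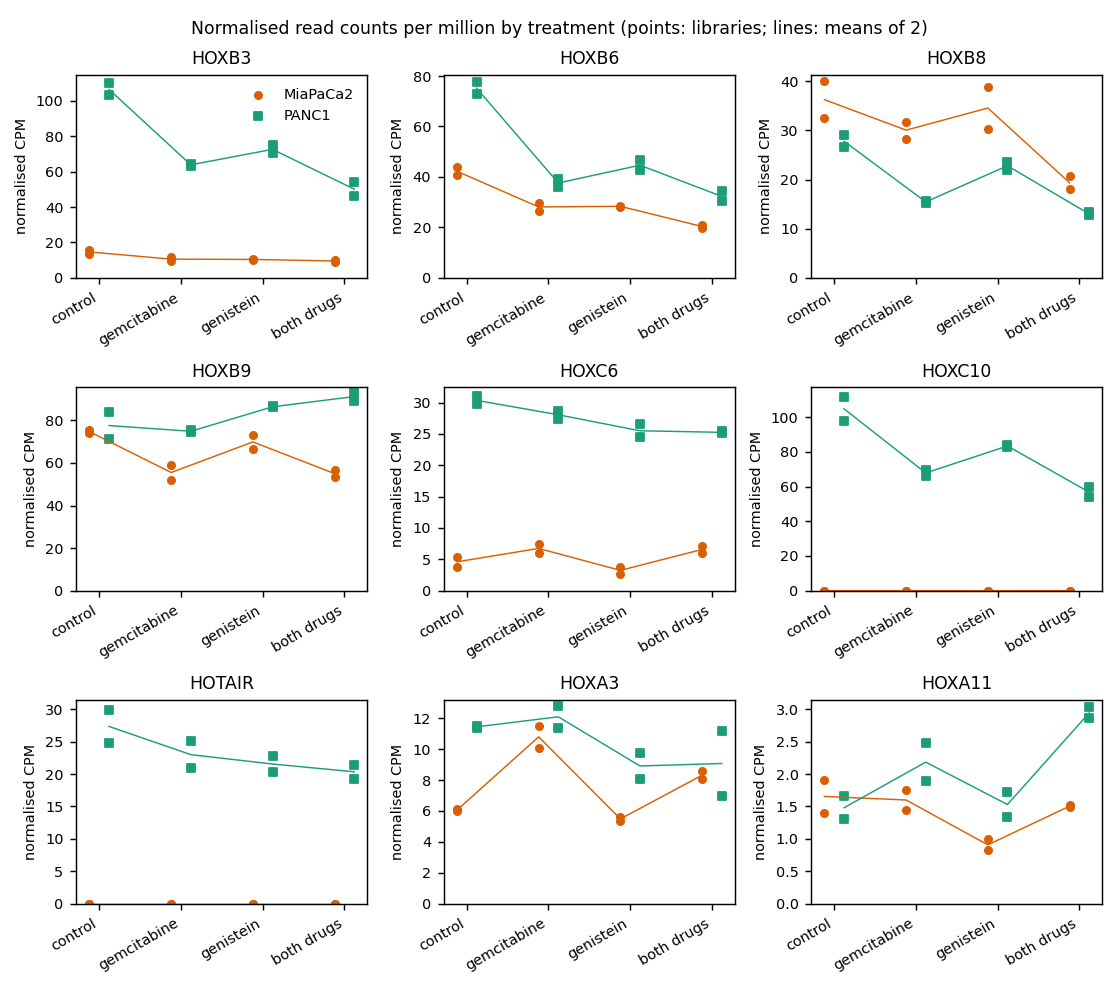
TMM-normalised CPM (vertical axis, starting at 0) by treatment for 9 members in each library of MiaPaCa2 (circles) and PANC1 (squares), with lines through the means of 2. HOXB6 lies lower with each treatment in both lines, HOXB9 falls with gemcitabine and with both drugs in MiaPaCa2 and not in PANC1, and HOTAIR and HOXC10 stay at or near 0 in MiaPaCa2.

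In MiaPaCa2 16 members were tested. Both drugs lowered 7, HOXB2, HOXB3 and HOXB5 to HOXB9, and raised 0, where 20.2% of all 16064 genes tested fell and 20.3% rose, 40.5% in all. The members' median was -0.55 against -0.01 for all genes tested. HOXB6 went from 40.6 and 43.9 CPM to 19.9 and 20.8 (-1.10 ± 0.11, adjusted p = 7.6e-06). HOXB8 changed by -0.95 ± 0.15 (adjusted p = 2.4e-04), HOXB5 by -0.87 ± 0.21 (0.00396), HOXB3 by -0.67 ± 0.17 (0.00477), HOXB2 by -0.59 ± 0.15 (0.00514), HOXB9 by -0.50 ± 0.10 (0.00112) and HOXB7 by -0.47 ± 0.14 (0.0162), with adjusted p in parentheses. HOXC8 (-1.0 ± 0.20, adjusted p = 0.00101) and HOXB4 (-0.78 ± 0.21, adjusted p = 0.00832) were also lower but under 1 FPKM in the treated cells. HOXA13 was higher by 1.42 ± 0.45 (adjusted p = 0.0185) from 13 and 7 counts to 30 and 26, likewise under 1 FPKM. edgeR and DESeq2 kept all 7 calls and log2(FPKM + 1) kept 3. On that scale the HOXB2 value turned positive (0.40, adjusted p = 0.382).

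Gemcitabine alone raised 1 member and lowered 4 in MiaPaCa2, against 15.0% and 14.6% of all genes tested (29.6% in all). HOXA3 rose from 6.14 and 5.97 CPM to 11.5 and 10.1 CPM (0.77 ± 0.16, adjusted p = 0.0025), and all settings tried kept this call. HOXB6 changed by -0.64 ± 0.11 (adjusted p = 6.8e-04), HOXC8 by -0.54 ± 0.18 (0.0319), HOXB3 by -0.52 ± 0.16 (0.0224) and HOXB9 by -0.48 ± 0.10 (0.0023). DESeq2 lost HOXB3 (adjusted p = 0.0641) and HOXC8 (adjusted p = 0.163). Without gemcitabine replicate 1 or replicate 2, 3 of the 5 calls were kept. HOXB4 (-1.13 ± 0.22, adjusted p = 0.0018) and HOXA13 (1.22 ± 0.45, adjusted p = 0.0484) passed the other criteria but not 1 FPKM.

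Genistein alone lowered 4 members in MiaPaCa2 and raised 0, against 4.13% and 4.18% of all genes tested (8.31% in all). HOXB13 had 25 and 23.8 CPM in the controls and 15.3 and 14.1 with genistein, and the groups did not overlap (-0.76 ± 0.12, adjusted p = 0.00317). HOXC8 changed by -0.65 ± 0.18 (adjusted p = 0.0399), HOXB6 by -0.58 ± 0.11 (0.0066) and HOXB7 by -0.57 ± 0.14 (0.0268). Without control replicate 1, 0 of the 4 were called, without control replicate 2, 1 was, and without either gemcitabine or either genistein library, 2 were. Genistein added to gemcitabine lowered 2 members, HOXB8 (-0.64 ± 0.15, adjusted p = 0.0271) and HOXB6 (-0.47 ± 0.12, adjusted p = 0.0337), against 1.83% of all genes tested that fell, and 0 rose, against 4.05% (5.88% in all). Without gemcitabine replicate 1 or 2, 0 were called, and without control replicate 1, control replicate 2 or both-drugs replicate 2, HOXB8 alone was.

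The comparisons against control within a line share the control libraries, and so their values for a member are not independent. Library GC trends also differed between the controls and both drugs in MiaPaCa2, while in PANC1 these groups overlapped and their replicates differed. The slope of log2 counts per 10% of GC content was 0.29 and -0.07 in the PANC1 controls and -0.16 and 0.23 with both drugs, -0.23 and -0.14 in the MiaPaCa2 controls and 0.05 and 0.29 with both drugs. The members had a median exon GC content of 55.1%, above the 48.0% of all genes tested. After the GC correction the PANC1 calls for both drugs were 16 lower and 1 higher and those for gemcitabine 13 lower, so more members were called with it. The share of all genes called with this correction is not given here, so the rise cannot be read as particular to the members.

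Whether the response differed between the lines was tested directly, as the PANC1 change minus the MiaPaCa2 change, with calls at adjusted p values up to 0.05. Of the 28 members in this model 12 had at most 3 counts in each untreated MiaPaCa2 library. Their MiaPaCa2 change could not be measured, so the counts of members below say little about these 12. For both drugs 1 member had a higher and 1 a lower change in PANC1, where 7.38% and 10.7% of all 17863 genes tested did (18.1% in all). HOXB9 had 74 and 75.3 CPM in the MiaPaCa2 controls and 53.2 and 56.8 with both drugs, against 83.7 and 71.4 and then 88.9 and 93.4 in PANC1. The difference was 0.69 ± 0.14 (adjusted p = 0.00637). HOXC6 had 3.77 and 5.44 and then 7.10 and 6.06 in MiaPaCa2, against 31 and 29.7 and then 25.1 and 25.4 in PANC1, a difference of -0.81 ± 0.25 (adjusted p = 0.0402). HOXC6 is the gene of which 13.4% of windows are shared, chiefly with HOXC4. The HOXB9 call was kept under every setting tried, while that of HOXC6 was lost under 16, among them library size alone (-0.64, adjusted p = 0.103) and the fit without MiaPaCa2 control replicate 1 (-0.48, adjusted p = 0.307). For gemcitabine 0 members differed by limma-voom and by edgeR and 1 by DESeq2, with 15.3% of all genes called (6.21% higher, 9.06% lower) and 2 members higher and 6 lower at an unadjusted p under 0.05. Without PANC1 control replicate 2, 5 members did. For genistein 0 differed by all 3 tools, with 0.0336% of all genes called by limma-voom (0.00560% higher, 0.0280% lower) and 2 members higher and 2 lower at an unadjusted p under 0.05. The shares of all genes at an unadjusted p under 0.05 are not given here, so these counts cannot be read as particular to the members. HOTAIR, at 0 counts in MiaPaCa2, had a difference of -0.43 ± 0.73 for both drugs, and this standard error exceeded the change of -0.41 seen in PANC1.

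Regulators and noncoding neighbors moved with the treatments in part. With both drugs in MiaPaCa2, 4 polycomb genes rose and 11 fell of 27, where 20.3% of all genes tested rose and 20.2% fell. Among those that fell were AEBP2 (-1.23 ± 0.15, adjusted p = 2.8e-05), PCGF1 (-1.07 ± 0.16, adjusted p = 1.2e-04) and SUZ12 (-0.99 ± 0.19, adjusted p = 7.2e-04). KMT2A fell by 0.89 ± 0.13 (adjusted p = 9.9e-05). In PANC1 1 polycomb gene rose and 2 fell, where 10.2% of all genes tested rose and 6.90% fell. EZH2 changed by 0.63 ± 0.16 (adjusted p = 0.0323) and KMT2A by -0.52 ± 0.11 (adjusted p = 0.0164). MEIS2 fell by 1.51 ± 0.12 and MEIS3 rose by 1.47 ± 0.14 in MiaPaCa2 with both drugs, and both differed from PANC1 (1.65 ± 0.23, adjusted p = 3.9e-04, and -2.06 ± 0.24, adjusted p = 1.3e-04). Of the cluster noncoding RNAs tested with both drugs, 1 of 11 fell and 0 rose in PANC1, namely HOXC13-AS (-0.79 ± 0.17, adjusted p = 0.016). In MiaPaCa2 2 of 5 rose, HOXA11-AS (0.80 ± 0.25, adjusted p = 0.0167) and HOXB-AS1 (0.70 ± 0.26, adjusted p = 0.0385), and HOXA-AS2 fell (-0.52 ± 0.16, adjusted p = 0.0161), while 7 HOXB genes fell there. CDH1 and VIM fell in PANC1 with both drugs (-1.78 ± 0.18, adjusted p = 0.00125, and -1.04 ± 0.07, adjusted p = 2.2e-04). They do not stand for the epithelial and mesenchymal markers as lists. The mesenchymal FN1 had 39 and 51 counts in the PANC1 controls and 47 and 47 with both drugs, in smaller libraries. In MiaPaCa2 with both drugs 1 mesenchymal marker rose and 2 fell of 3 tested. The part of these genes in the HOX changes was not tested.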

How the data were processed

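RNA-seq was run on 16 libraries from 2 cell lines, with 2 biological replicates in each of 8 groups. Per the labels and the methods of the study, the authors aligned single 50-base reads from stranded poly-A libraries to GRCh37 with TopHat 2.0.4, used Picard 1.29, made the deposited read counts per gene with HTSeq 0.6.1 and made the deposited FPKM values of genes and isoforms with Cufflinks 2.1.1. The annotation release, and whether HTSeq was run with strand, are not given in the sources used here. Between 12943482 and 31991860 reads were counted on genes per library, which limits genes near 0 counts.

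Counts were tested with limma-voom (limma 3.58.1, edgeR 4.0.16, R 4.3.3) after TMM scaling and the low-count filter of edgeR, in a model of 8 libraries for each line and a model of 16 for comparisons between lines, with Benjamini-Hochberg adjusted p-values over all genes tested. Calls needed adjusted p up to 0.05, a log2 fold change of 0.4 or more in size and mean FPKM over 1 in the treated group (in either line for the line comparison). Differences of response were called by adjusted p alone. The fitting code was tested on simulated gemcitabine comparisons, without the FPKM criterion. Of 100 genes given a log2 change of 1 in size, 83 were recovered in MiaPaCa2 and 56 in PANC1. False calls numbered 9 and 15. A change of this size in PANC1 could thus go uncalled. FPKM values listed more than once for an identifier were summed. Folds against libraries at 0 counts were computed against a floor of 3 counts per library.

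The values of 1 member are not reported here. Every other member could be named, every other called member was named unless more than 12 moved one way, and up to 6 genes of each related list were named per comparison, the called ones with the greatest changes first. The members and lists were chosen with earlier results of these data known. Alternatives were edgeR quasi-likelihood, DESeq2 1.42.0, its size factors, library size alone, no low-count filter, limma on log2(FPKM + 1), no FPKM criterion, a replicate block, a GC correction, 1 model of all 16 libraries, the line difference averaged over treatments and leaving out each library. A crossed replicate block was added after seeing the data. Replicates were compared by the correlation of their deviations from group means.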

Additional observations from a re-analysis of the deposited data

Results flagged for a closer look

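The change with both drugs differed between the lines for 2 members by the test of the difference (limma-voom, PANC1 minus MiaPaCa2). HOXB9 differed by 0.69 on the log2 scale (adjusted p = 0.00637), being lower with both drugs in MiaPaCa2 and not in PANC1. HOXC6 differed by -0.81 (adjusted p = 0.0402), with a positive change in MiaPaCa2 (0.49 ± 0.24, adjusted p = 0.0995) and a negative one in PANC1 (-0.24 ± 0.12, adjusted p = 0.202), neither of which passed on its own. No group held the 4 libraries needed to look for single libraries that stand apart.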

How the results depend on the processing

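Of 1331 values of single called members under an alternative, 1174 kept direction and call, 156 kept direction but not the call (89 with a library left out) and 1 turned, HOXB2 with both drugs in MiaPaCa2 on log2(FPKM + 1) (0.40). Between the untreated lines 20 to 24 members were called under the alternatives, the 24 without the FPKM criterion, and 20 to 21 with 1 library left out. The 20 calls were all kept except that of HOXA2, lost without MiaPaCa2 control replicate 1 (0.98, adjusted p = 0.0736), where HOXB8 was called lower in PANC1 and the count stayed at 20. The counts of members called under the alternatives are given without the shares of all genes called, so a change in them is not particular to the members. Of these counts, 198 stayed within 1.5 times and 69 did not. The cause was not tested.

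With DESeq2 the count was 3 for gemcitabine in MiaPaCa2 (5 in limma-voom), 5 for genistein in PANC1 (0) and 1 for the difference of the gemcitabine response (0). With library size alone these were 2 for gemcitabine in MiaPaCa2, 5 for gemcitabine in PANC1 (8) and 1 for the difference of the gemcitabine response. Without the low-count filter, 5 were called for gemcitabine in PANC1 and 1 for genistein added to gemcitabine in MiaPaCa2 (2). On log2(FPKM + 1), gemcitabine gave 2 in MiaPaCa2 and 1 in PANC1, genistein 0 in MiaPaCa2 (4), both drugs 4 in MiaPaCa2 (7), genistein added to gemcitabine 0 in MiaPaCa2, and the differences of response 2 for gemcitabine and 4 for both drugs (2). With the GC correction, gemcitabine gave 9 in MiaPaCa2 and 13 in PANC1, genistein 6 in PANC1, genistein added to gemcitabine 5 in MiaPaCa2 and 4 in PANC1 (0), and the differences of response 2 for gemcitabine and 1 for genistein (0). In 1 model of all 16 libraries, 3 were called for gemcitabine and 2 for genistein in MiaPaCa2, 1 for genistein added to gemcitabine there and 5 for genistein in PANC1.

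With 1 library left out, the counts ran from 3 to 5 for gemcitabine, 0 to 5 for genistein, 5 to 7 for both drugs and 0 to 2 for genistein added to gemcitabine in MiaPaCa2. In PANC1 they ran from 0 to 8 for gemcitabine and 11 to 13 for both drugs. The differences of response ran from 0 to 5 for gemcitabine and 1 to 5 for both drugs, with 5 in each without PANC1 control replicate 2.

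Same-numbered libraries were not treated as pairs, since the labels name no shared batch and not every correlation of their deviations from the group means was over 0.1. In PANC1 the control, gemcitabine and genistein libraries correlated with each other (0.106 to 0.331) and negatively with both drugs (-0.569 to -0.095), and whether the numbers of the both-drugs libraries are crossed was not tested. With the replicate block the counts were 3 for gemcitabine in PANC1, 1 for genistein added to gemcitabine in MiaPaCa2 and 1 for the difference of the both-drugs response. With the GC correction and the replicate block together they were 9 for gemcitabine and 5 for genistein added to gemcitabine in MiaPaCa2, 5 for genistein and 3 for genistein added to gemcitabine in PANC1, and 2 and 1 for the gemcitabine and genistein differences of response. With the numbers crossed, chosen after seeing the data, 18 members were called for both drugs in PANC1, 3 for genistein added to gemcitabine in MiaPaCa2 and 0 for it in PANC1. With 2 libraries a group and few counts for HOXD genes, HOTTIP and HOXC5, small changes of these were not detectable.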
